A study of Mus musculus with 6 samples.

Results

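AP-1 and immediate early genes were measured in mouse lens as 10 genes, Fos, Fosb, Fosl1, Fosl2, Jun, Junb, Jund, Egr1, Ier2 and Ier3, out of 20659 named genes on the array. Every probe whose transcript accession belongs to one of these genes was taken, which gave 11 of 39429 probes, with a pair of probes for Fosl2 and 1 for each of the others. The knock-in group held 3 arrays, labelled replicates 1, 2 and 4, of lens RNA from mice carrying W151C, a CRISPR/Cas9-made G-to-C change in codon 151 of Crybb2 that puts cysteine in place of tryptophan in βB2-crystallin. The wild type group held 3 arrays, replicates 1, 2 and 3, of lens RNA from mice without the change. All mice were 3 months old. Whether the knock-in mice carried 1 or both edited alleles, how many founder lines there were, and whether each array held lenses from 1 mouse or a pool are not given in the sources used here.

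Immediate early genes are transcribed within minutes of a stimulus, before any new protein is made. Growth factors, stress and wounding act through MAP kinases on factors already bound at their promoters, and the messages are short-lived. FOS and JUN proteins pair through leucine zippers to form AP-1, which binds the sequence TGANTCA. FOS proteins cannot pair with themselves, so they need a JUN partner, while JUN proteins can pair with each other. EGR1 is a zinc finger factor induced by the same kinases, and IER2 and IER3 are small proteins named for their early induction. In lens, immediate early genes are known for a fast response of epithelial cells to serum and injury.

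Promoters from RefSeq, on build GRCm38.p6, were matched by symbol for 7 of the 10 genes. Each covers 250 bases before to 50 bases after the annotated start. Those of Fos (chr12:85473640-85473939, plus strand), Fosb (chr7:19309996-19310295, minus strand), Jun (chr4:95052173-95052472, minus strand) and Junb (chr8:84978699-84978998, minus strand) are shown because these AP-1 genes had lower signals in the knock-in lenses within the shared scan day, as given further on. Over all arrays Fos, Fosb and Jun were not called as different, and Junb was well above background on wild type arrays only. Capitals mark TGACG, the core of the cyclic AMP response element, TGACATCA, the element through which AP-1 and ATF factors act on the Jun promoter, and GCGGGGGCG, the EGR site.
Fos: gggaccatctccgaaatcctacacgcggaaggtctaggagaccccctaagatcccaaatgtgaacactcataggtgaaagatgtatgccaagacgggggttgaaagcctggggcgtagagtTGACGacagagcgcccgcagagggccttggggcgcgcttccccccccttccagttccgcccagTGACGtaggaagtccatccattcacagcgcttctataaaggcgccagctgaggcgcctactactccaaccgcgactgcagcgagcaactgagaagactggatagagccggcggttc
Fosb: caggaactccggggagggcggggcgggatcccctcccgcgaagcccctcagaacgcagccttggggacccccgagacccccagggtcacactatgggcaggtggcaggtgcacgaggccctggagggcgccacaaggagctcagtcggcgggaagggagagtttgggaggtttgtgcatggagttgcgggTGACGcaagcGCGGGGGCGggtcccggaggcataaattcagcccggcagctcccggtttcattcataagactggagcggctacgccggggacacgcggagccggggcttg
Jun: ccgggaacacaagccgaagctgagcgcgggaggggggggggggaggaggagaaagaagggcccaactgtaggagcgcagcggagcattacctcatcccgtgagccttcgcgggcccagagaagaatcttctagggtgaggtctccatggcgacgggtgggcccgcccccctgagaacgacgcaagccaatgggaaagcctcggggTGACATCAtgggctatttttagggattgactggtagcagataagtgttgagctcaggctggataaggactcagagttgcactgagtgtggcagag
Junb: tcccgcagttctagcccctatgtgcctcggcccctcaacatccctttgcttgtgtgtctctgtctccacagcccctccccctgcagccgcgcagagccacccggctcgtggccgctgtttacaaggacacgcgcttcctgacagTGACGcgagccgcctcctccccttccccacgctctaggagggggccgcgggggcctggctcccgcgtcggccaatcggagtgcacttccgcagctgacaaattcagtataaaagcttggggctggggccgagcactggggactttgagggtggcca
Matches were sought on both strands. TGACG began 129 and 66 bases before the start of Fos, 60 before that of Fosb and 106 before that of Junb, and 20.8% of 32851 promoters of the same length hold it. TGACATCA began 45 bases before the start of Jun, and 3.62% of promoters hold it. GCGGGGGCG began 50 bases before the start of Fosb and 79 before that of Fosl2, and 2.91% of promoters hold it. The complete element TGACGTCA, which contains TGACG, the AP-1 sequence TGANTCA and the CArG box bound by serum response factor were not in these windows of the 7 genes, and 1.79%, 7.81% and 1.63% of all promoters hold them. A match is a description of the letters and does not show a bound site.

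Each array was single-colour, and its signals were taken on the log2 scale relative to the 75th percentile of the array. That percentile ran between 167.4 and 200.9 among knock-in arrays, against 142.2, 120 and 698.4 on wild type arrays 1, 2 and 3. The share of spots well above background ran between 45.5% and 58.4%, and no spot was saturated. Slide 1 carried the knock-in arrays, slide 2 carried wild type arrays 1 and 2, and slide 3, scanned on a different day, carried wild type array 3. Since slides did not mix genotypes, effects of slide and of genotype cannot be told apart. The scan day could be fitted as a block, and because wild type array 3 was alone on its day, that difference sets all knock-in arrays against the pair of wild type arrays 1 and 2. It is called the within-day difference here. Lens fibre markers checked the tissue, with 8 of 8 well above background on every array.

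The first question was which of these genes the W151C lenses express at another level than wild type lenses. Over all 6 arrays Ier3, a gene linked to survival under stress, and Fosl2, which encodes the FOS family protein FRA-2, were higher in knock-in lenses, and Junb, the JUN family member that often opposes c-JUN, was lower, though only the wild type arrays measured it. The other probe of Fosl2 pointed the other way, at -0.32, none of the 3 calls held under a random slide effect, and those of Fosl2 and Ier3 were lost on leaving out any knock-in array. Fos, Fosb, Jun and Egr1 did not pass the test, with wild type array 3 far below wild type arrays 1 and 2 for each of them. Against wild type arrays 1 and 2 alone they were lower in knock-in lenses, with log2 differences of -2.33, -2.13, -1.29 and -1.40. Jund did not pass either way, Ier2 was measured on wild type arrays 1 and 2 only, and Fosl1 was above background on no array.

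A total of 8 of the 10 genes were well above background on all arrays of at least 1 genotype and were tested, with limma and Benjamini-Hochberg adjustment over all 21076 probes tested. Of these 8, 2 were higher and 1 was lower at an adjusted p of 0.05, where 24.2% of 12785 genes and 23.6% of all tested probes were called, 12.4% of the genes higher and 11.8% lower. Their median log2 difference was -0.31, against -0.04 over all genes. The within-day fit called 2 higher and 5 lower of 8, where 42.7% of genes were called, 19.0% higher and 23.7% lower, with a median of -1.35 against -0.02 over all genes, and the 5 include Junb, which was kept through wild type alone. Under a random slide effect limma called 0 of the 8, where 3.86% of genes were called, and Junb and Ier3 were the 2 with an unadjusted p under 0.05. These 8 are not a fair sample of the 10, since a gene passed the filter on dim probes also through the genotype in which it was brighter.

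**Figure D1:**
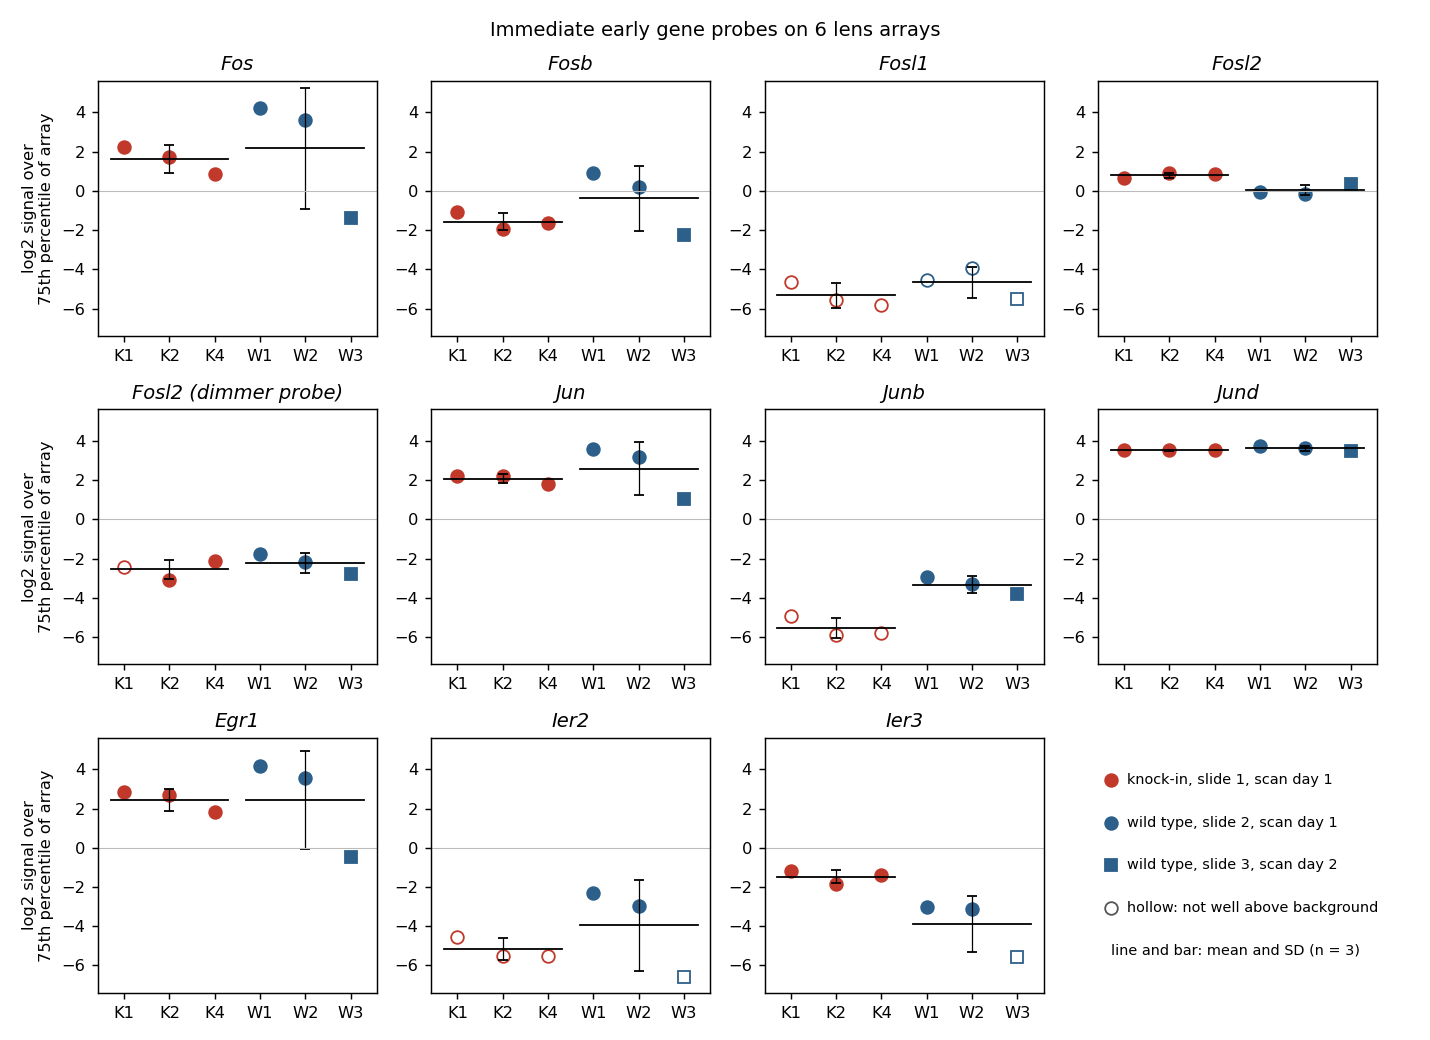
Log2 signal relative to the array's 75th percentile (vertical axis) on knock-in arrays 1, 2 and 4 (K1, K2, K4) and wild type arrays 1, 2 and 3 (W1, W2, W3), for each of the 11 probes, with the mean and SD of each genotype (n = 3). Wild type array 3 (square) lies below every other array for Fos, Fosb, Jun, Egr1, Ier2 and Ier3, while Jund lies near the same level on all 6 arrays.

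Fos encodes c-FOS, the founding partner of JUN in AP-1. Its scaled log2 signals were 2.25, 1.73 and 0.85 on knock-in arrays 1, 2 and 4, compared with 4.24, 3.63 and -1.39 on wild type arrays 1, 2 and 3. The knock-in arrays thus lay between wild type arrays 1 and 2 on the one side and wild type array 3 on the other, and the genotypes overlapped. Before scaling, the signal was 799.2, 667.4 and 338.6 on the knock-in arrays, against 2694, 1488 and 266.4 on the wild type arrays, so that wild type array 3 was the lowest of the 6 in both. The mean scaled signal was 1.61 ± 0.71 in knock-in and 2.16 ± 3.09 in wild type lenses (SD, n = 3 each), a difference of -0.55 (SE 1.38, limma adjusted p = 0.799). The within-day difference was -2.33 (SE 0.42, limma adjusted p = 0.00666), a 5.02-fold lower level in the knock-in lenses. Under a random slide effect the difference was 0.01 (limma adjusted p = 0.997). The probe was printed as 10 spots per array, and the coefficient of variation over them was 3.81% to 7.13%, with 8 spots used on wild type array 2. The knock-in arrays spanned 2.65-fold and the wild type arrays 49.7-fold, both more than the spread between spots of 1 array.

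Fosb, whose protein also pairs with JUN and is known in brain for a long-lived splice form, also differed most among the wild type arrays. Its scaled log2 signals were -1.09, -1.96 and -1.65 on knock-in arrays 1, 2 and 4, compared with 0.92, 0.20 and -2.24 on wild type arrays 1, 2 and 3. The 3 knock-in arrays lay below wild type arrays 1 and 2 and above wild type array 3. The difference was -1.19 (SE 0.75, limma adjusted p = 0.286), and the within-day difference was -2.13 (SE 0.32, limma adjusted p = 0.00379). Fosl1, which encodes FRA-1, was not well above background on any of the 6 arrays and was not tested. Its signal before scaling was 3.36 to 6.77 on the knock-in arrays and 6.10 to 15.3 on the wild type arrays.

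Fosl2, whose product FRA-2 lacks the strong transactivation domain of c-FOS, was higher in knock-in lenses on its brighter probe. The scaled log2 signals were 0.66, 0.90 and 0.85 on knock-in arrays 1, 2 and 4, compared with -0.05, -0.14 and 0.35 on wild type arrays 1, 2 and 3. All knock-in arrays lay above all wild type arrays, and for 45.9% of genes the genotypes did not overlap, in either direction. The difference was 0.75 (SE 0.19, limma adjusted p = 0.0322), a 1.68-fold rise, and the within-day difference was 0.90 (SE 0.15, limma adjusted p = 0.00463). The dimmer Fosl2 probe gave -2.42, -3.11 and -2.13 on the knock-in arrays, against -1.78, -2.16 and -2.77 on the wild type arrays. It overlapped between genotypes and pointed the other way, at -0.32 (SE 0.34, limma adjusted p = 0.523), so the probes of Fosl2 disagreed in direction and their mean gave 0.22 (limma adjusted p = 0.415). The call of the brighter probe was lost on leaving out any array other than wild type 3 (adjusted p from 0.0526 to 0.130) and under a random slide effect (adjusted p = 0.277).

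Jun encodes c-JUN, the partner that FOS proteins need. Its scaled log2 signals were 2.22, 2.21 and 1.80 on knock-in arrays 1, 2 and 4, compared with 3.57, 3.17 and 1.04 on wild type arrays 1, 2 and 3. As for Fos, the knock-in arrays lay between wild type array 3 and the other wild type arrays. Their difference was -0.52 (SE 0.61, limma adjusted p = 0.572) over all arrays and -1.29 (SE 0.21, limma adjusted p = 0.00448) within the day. Before scaling, Jun read 781.0, 927.7 and 654.2 on the knock-in arrays, against 1684, 1077 and 1437 on the wild type arrays. Wild type array 3 was thus low for Jun after scaling to that array's brighter percentile, and not before. The same held for Fosb, which read 78.7, 51.5 and 60.2 on the knock-in arrays, against 269.2, 137.6 and 147.8 on the wild type arrays. Fos and Egr1, in contrast, were lowest on wild type array 3 before scaling as well. Signals before scaling also carry the brightness of the array, as Jund read 7855 on wild type array 3 against 1883 and 1504 on wild type arrays 1 and 2.

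Junb had scaled log2 signals of -4.95, -5.88 and -5.81 on knock-in arrays 1, 2 and 4, compared with -2.93, -3.30 and -3.79 on wild type arrays 1, 2 and 3. All knock-in arrays lay below all wild type arrays, and Junb was well above background on the wild type arrays only. It was kept through the wild type group alone, so a fall was the only difference it could show. The fitted difference was -2.20 (SE 0.32, limma adjusted p = 0.00481), but since no knock-in array measured it, its level there has only a bound, at least 1.005-fold lower than in wild type. After normexp background correction, which compresses the differences of dim probes, the difference was -0.21 (limma adjusted p = 0.267), and under a random slide effect the adjusted p was 0.0964.

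Jund, the JUN family member that is held at a steady level in most resting cells, differed little between arrays. Its scaled log2 signals were 3.54, 3.51 and 3.51 on knock-in arrays 1, 2 and 4, compared with 3.73, 3.65 and 3.49 on wild type arrays 1, 2 and 3. The knock-in arrays spanned 1.02-fold and the wild type arrays 1.18-fold, and the genotypes overlapped. The difference was -0.10 (SE 0.15, limma adjusted p = 0.673) over all arrays and -0.16 (SE 0.13, limma adjusted p = 0.334) within the day.

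Egr1 had scaled log2 signals of 2.82, 2.71 and 1.82 on knock-in arrays 1, 2 and 4, compared with 4.16, 3.55 and -0.45 on wild type arrays 1, 2 and 3. The order of the arrays was that of Fos, with knock-in array 4 the lowest of its genotype and wild type array 3 the lowest of all. The knock-in arrays spanned 2.00-fold and the wild type arrays 24.4-fold. The difference was 0.03 (SE 1.12, limma adjusted p = 0.987), and the within-day difference was -1.40 (SE 0.35, limma adjusted p = 0.0198). The sign of the difference over all arrays was not stable, turning to -0.01 with median centring and to -0.16 with normexp.

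Ier2 had scaled log2 signals of -4.53, -5.51 and -5.50 on knock-in arrays 1, 2 and 4, compared with -2.29, -2.95 and -6.61 on wild type arrays 1, 2 and 3. It was well above background on wild type arrays 1 and 2 only, so it was not tested over all 6 arrays. In a fit of the arrays scanned on day 1 it entered through those wild type arrays alone, so a fall was the only difference it could show. No knock-in array measured it, and its level there has only a bound, at least 1.66-fold lower than on wild type arrays 1 and 2. The fitted difference of Ier2, not the bound, had a limma adjusted p = 0.00340. That fit called 2 higher and 6 lower of 9 of the genes, where 42.6% of 13064 genes were called, 18.5% higher and 24.1% lower. The 6 include Ier2 and Junb, which could be called only lower.

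Ier3 had scaled log2 signals of -1.17, -1.83 and -1.40 on knock-in arrays 1, 2 and 4, compared with -2.995, -3.13 and -5.55 on wild type arrays 1, 2 and 3. Every knock-in array lay above every wild type array, and on wild type array 3 the probe was not well above background. Ier3 rose by 2.43 (SE 0.65, limma adjusted p = 0.0368), and within the day by 1.60 (SE 0.22, limma adjusted p = 0.00269), a 3.03-fold rise. The wild type mean rests partly on a value at background, and with normexp the rise was 0.79 (limma adjusted p = 0.0162). The call was lost under a random slide effect (adjusted p = 0.137) and on leaving out any knock-in array (adjusted p from 0.0847 to 0.120).

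**Figure D2:**
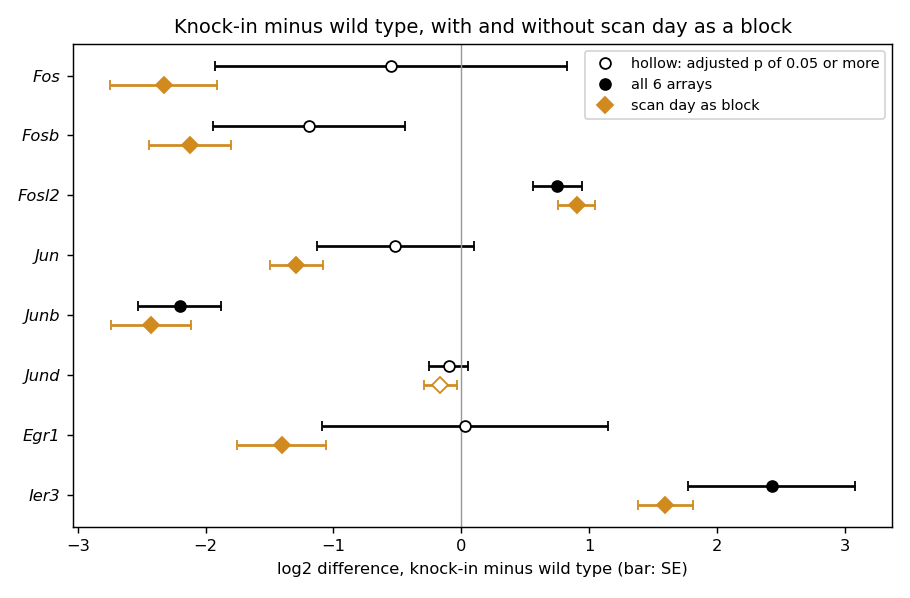
Log2 difference of knock-in minus wild type (horizontal axis, bar: SE) for the 8 genes tested, over all 6 arrays (black circles) and under a scan day block (orange diamonds); hollow symbols did not pass an adjusted p of 0.05. Fos, Fosb, Jun and Egr1 pass only with the block and then lie between -2.33 and -1.29, while Fosl2 and Ier3 lie above 0 in both.

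Several of these genes were among those that spread most between the wild type arrays. Among 10652 genes well above background on every array, the SD of Fos on the log2 scale was 0.71 over the knock-in arrays (rank 128) and 3.09 over the wild type arrays, the largest of all. That of Egr1 was 0.55 over the knock-in arrays (rank 365) and 2.50 over the wild type arrays, the second largest. Fosb had an SD of 0.44 in knock-in lenses (rank 842) and 1.66 in wild type lenses (rank 37), and Jun had 0.24 (rank 3975) and 1.36 (rank 78). The median SD over these genes was 0.19 in knock-in and 0.22 in wild type lenses. Jund and Fosl2 spread less in wild type lenses, at ranks 7968 and 4315. These ranks are a description of 3 arrays per genotype and were not tested.

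**Figure D3:**
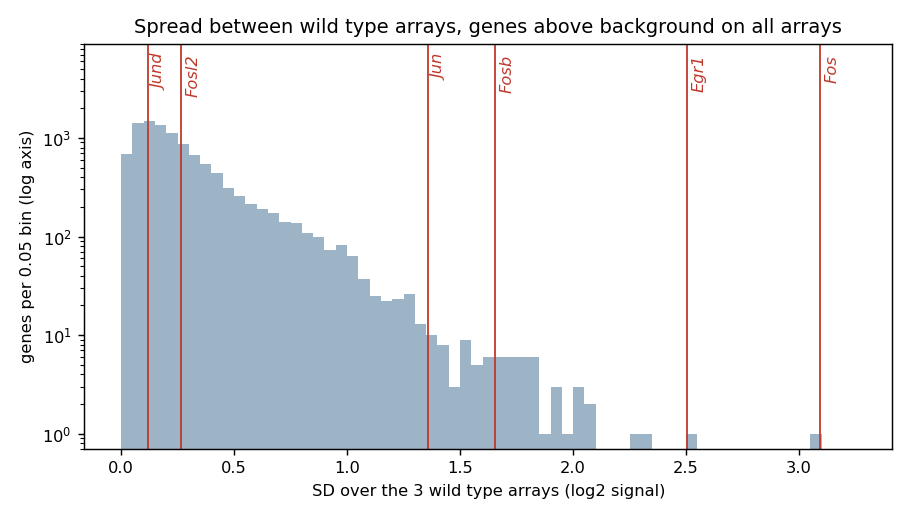
Number of genes (vertical log axis) by SD of the log2 signal over the 3 wild type arrays (horizontal axis), for 10652 genes well above background on all arrays, with red lines at 6 of the AP-1 and immediate early genes. Fos at 3.09 and Egr1 at 2.50 lie at the far right, Fosb and Jun at 1.66 and 1.36, and Jund and Fosl2 among most other genes.

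Wild type array 3 stood apart from the other wild type arrays for these genes. On the log2 scale it differed from the mean of wild type arrays 1 and 2 by -5.33 for Fos, a 40.2-fold lower level. The same difference was -4.30 for Egr1, -2.80 for Fosb, -2.32 for Jun and -2.49 for Ier3. These 5 of the 8 tested genes were at least 4-fold lower there, where 1.66% of 12783 genes were, and 0.0235% were at least 4-fold higher. For Ier3 the value on wild type array 3 is at background. Of the 10652 genes above, Fos and Egr1 were the lowest and second lowest on wild type array 3 relative to the other wild type arrays.

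The summed levels of some cell type markers also differed between wild type array 3 and the other wild type arrays. The summed level of 8 lens fibre markers, in multiples of the array's 75th percentile, was 924.3 to 940.6 on the knock-in arrays, against 2632, 3089 and 982.6 on wild type arrays 1, 2 and 3. The summed level of the leukocyte markers, of which 5 of 10 were above background on every array and Lyz2 on none, was 8.95 to 15.9 on the knock-in arrays, against 38.2, 41.0 and 12.8 on the wild type arrays. Most of that sum was Itgam, an integrin of myeloid cells, at 10.03, 6.07 and 7.85 on the knock-in arrays against 34.8, 37.0 and 11.4 on the wild type arrays. Without Itgam the leukocyte sum was 5.87, 2.88 and 2.67 on the knock-in arrays against 3.36, 4.01 and 1.43 on the wild type arrays, and of 7 leukocyte markers tested 1 was higher and 1 lower, with a median of -0.31. Tyrobp, a myeloid adaptor, was above background on 3 knock-in arrays and 0 wild type arrays. Kept through the knock-in group alone, Tyrobp could be called only higher, and the 7 leukocyte markers tested and their median include it. Lens epithelial markers, 6 of 8 of them well above background on every array, did not have this pattern, at 61.7 to 71.0 on the knock-in arrays against 38.5 to 42.4 on the wild type arrays. That gap was in Pdpn, at 37.5 to 44.3 on the knock-in arrays against 13.8 to 14.5 on the wild type arrays, and without it the sums overlapped, at 24.3 to 26.7 against 24.7 to 28.0. Of 8 epithelial markers tested 1 was higher and 1 lower, with a median of -0.22. The fibroblast or mesenchyme markers, with Lum above background on no array, summed to 11.5 to 22.4 on the knock-in arrays against 9.84 to 11.7 on the wild type arrays. Of these, Pdgfrb made up most of the wild type sums and was lower on every knock-in array, at 6.09 to 8.09 against 9.49 to 10.7 on the wild type arrays, while 2 of the 3 tested were higher, with a median of 3.05. The sums for cornea were 70.8 to 80.4 on the knock-in arrays against 58.9 to 87.0 on the wild type arrays, and those for vessels and pigment overlapped between the genotypes and stayed at 2.70 or less. Nearly all of the cornea sum was Aldh3a1. Its scaled log2 signals were 6.13, 6.32 and 6.16 on the knock-in arrays against 5.94, 5.86 and 6.44 on the wild type arrays. Among the other types, Krt12 of cornea, Opn1sw of retina, Best1 of pigment epithelium, and Cdh5, Tie1 and Tek of vessels were above background on no array. Retina markers summed to 24.9 on knock-in array 4, against at most 1.55 on knock-in arrays 1 and 2 and at most 0.39 on the wild type arrays. The part of these markers in the values of Fos, Egr1, Fosb, Jun and Ier3 was not tested, and in whole lens RNA fewer cells of a type and less RNA per cell cannot be told apart.

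Genes with a profile most like those of the 3 most variable among the 6 members above background on every array were found by the root mean square difference over the 6 arrays, after each gene's own mean was taken off. For Fos these were Sema6d, which encodes a semaphorin, at 0.69 and Gm15056 at 0.77 on the log2 scale, where the median over 10646 genes was 1.93. Egr1 was most like Sema6d, at 0.50, and Avpr2, which encodes a vasopressin receptor, at 0.52, with a median of 1.56. Fosb was most like Cldn15, a claudin of tight junctions, at 0.26, and Entpd4, a nucleotidase of internal membranes, at 0.30, with a median of 1.23. Fos and Egr1 lay nearer to each other, at 0.47, than to any of these genes, while Fosb lay 0.47 from Jun, farther than from Cldn15 and Entpd4.

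Other immediate early genes, a list of 41 of which 33 were tested, were called more often upward, with 11 higher, 1 lower and 21 not called, and a median difference of 0.45. Over all genes 12.4% were higher and 11.8% lower with a median of -0.04, which also stands beside the lists that follow. Plk2 and Plk3, polo-like kinases induced by stress and serum, rose by 4.70 (SE 0.32, limma adjusted p = 0.000286) and 3.05 (SE 0.20, limma adjusted p = 0.000258). Plk2 had scaled log2 signals of 1.47, 1.61 and 1.72 on the knock-in arrays, against -2.47, -3.06 and -3.74 on the wild type arrays, with no overlap. Zfp36l1, which encodes a protein that destabilises AU-rich messages, rose by 3.97 (SE 0.57, limma adjusted p = 0.00433), and Ier5l by 2.15 (SE 0.26, limma adjusted p = 0.00219). The 1 gene that fell was Nr4a2, a nuclear receptor, at -1.57 (SE 0.43, limma adjusted p = 0.0373), with 1 knock-in array well above background, so that its size is set partly against background. All 4 of the named rises also passed under a random slide effect, at adjusted p from 0.00311 to 0.0248, and Nr4a2 did not, at 0.318. Its call was also lost on leaving out any array but knock-in 1 or wild type 3 (adjusted p from 0.104 to 0.127), and with normexp the difference of Nr4a2 was -0.55 and the rises of Plk2, Plk3 and Ier5l were 2.98, 1.99 and 0.96.

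Within the scan day 13 of these 33 genes were higher and 7 lower, where 19.0% of all genes were higher and 23.7% lower. The list also held 5 genes at least 4-fold lower on wild type array 3 than on wild type arrays 1 and 2, namely Zfp36l1, Nr4a1, Zfp36, Ccn1 and Klf2. Nr4a1, a nuclear receptor co-induced with Fos, had scaled log2 signals of -0.47, -0.69 and 0.02 on the knock-in arrays, against 2.47, 1.58 and -0.13 on the wild type arrays. Its difference was -1.68 (SE 0.61, limma adjusted p = 0.0865) over all arrays and -2.40 (limma adjusted p = 0.00261) within the day. Zfp36, which encodes the mRNA-destabilising protein tristetraprolin, and Ccn1, a matrix-associated early gene, also passed within the day and not over all arrays, at -1.59 (limma adjusted p = 0.00535) and -1.28 (limma adjusted p = 0.0242). Klf2 passed in neither fit, at 0.76 (limma adjusted p = 0.359) and 0.08 (limma adjusted p = 0.821).

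Partners of AP-1, leucine zipper proteins of the ATF, MAF, BATF and CEBP families, were 22 genes of which 20 were tested, with 5 higher, 1 lower and a median of 0.34. Cebpb, which encodes an inflammatory and stress factor, rose by 2.58 (SE 0.26, limma adjusted p = 0.00108), with 3.63, 3.82 and 3.75 on the knock-in arrays against 1.46, 1.40 and 0.61 on the wild type arrays. Atf5 and Atf4, factors of the integrated stress response, rose by 2.19 (SE 0.18, limma adjusted p = 0.000555) and 0.88 (SE 0.21, limma adjusted p = 0.0262). Maff, a small MAF protein that the immediate early list also holds, rose by 1.32 (limma adjusted p = 0.00958). Atf6, a membrane-bound factor of the unfolded protein response, rose by 1.62 (limma adjusted p = 0.0197) with 1 wild type array well above background, so that its size is set partly against background, and with normexp it was 0.38 (limma adjusted p = 0.0614). Batf, a zipper protein of lymphoid cells that pairs with JUN, was above background on no knock-in array. It was at least 1.95-fold lower (limma adjusted p = 0.00177 for the fitted difference). Kept through the wild type group alone, Batf could be called only lower. Of these 6, Atf5, Cebpb and Batf also passed under a random slide effect, at adjusted p from 0.0108 to 0.0349. On leaving out 1 array the calls of Atf4 (any array but knock-in 1 or wild type 3, adjusted p from 0.0788 to 0.109), Atf6 (any array but wild type 2 or 3, adjusted p from 0.0583 to 0.0699) and Maff (without knock-in 2, adjusted p = 0.0506) were lost. Atf3, an early stress-induced partner of JUN, did not pass, at 2.52 (SE 0.88, limma adjusted p = 0.0797), with its knock-in arrays between 0.42 and 0.82 and its wild type arrays between -3.88 and 0.12. It passed without wild type 1, at 3.55 (limma adjusted p = 0.00843), and with median centring (0.00716), normexp (0.0411) and a block for replicate number (0.0164). Neither the scan day block (0.0785) nor a random slide effect (0.296) gave a call. Atf3 and Creb1 were the partners at least 4-fold lower on wild type array 3 than on the other wild type arrays, with log2 differences of -2.89 and -2.48.

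The kinases and serum response factors that act upstream were 32 genes, of which 26 were tested, with 2 higher, 3 lower and a median of -0.05. Rps6ka3, which encodes the ERK-activated kinase RSK2, rose by 2.06 (SE 0.19, limma adjusted p = 0.000843). Elk3, an ETS factor that binds with serum response factor, rose by 1.42 (SE 0.16, limma adjusted p = 0.00191), though its other probes gave 1.62 and -0.55, with a mean over probes of 0.83. With normexp the rises of Rps6ka3 and Elk3 were both 0.82. Mapk10, which encodes JNK3, fell by 1.69 (SE 0.21, limma adjusted p = 0.00236), Map3k5, the stress kinase ASK1, by 2.07 (SE 0.41, limma adjusted p = 0.0133), and Mapk14, the kinase p38α, by 0.67 (SE 0.19, limma adjusted p = 0.0452). Under a random slide effect Rps6ka3, Elk3 and Mapk10 passed (adjusted p from 0.0232 to 0.0485), and Map3k5 and Mapk14 did not (0.125 and 0.355). The call of Map3k5 was lost without knock-in 4 (adjusted p = 0.0505) and that of Mapk14 on leaving out any array but wild type 3 (adjusted p from 0.0927 to 0.173).

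Phosphatases and other inhibitors that end MAP kinase signalling were 20 genes, of which 15 were tested, with 2 higher, 2 lower and a median of 0.09. Dusp1, a phosphatase of JNK and p38 that is itself an early gene, had scaled log2 signals of 0.94, 0.93 and 0.63 on the knock-in arrays, against 3.45, 2.97 and 1.33 on the wild type arrays. It fell by 1.75 (SE 0.51, limma adjusted p = 0.0464) over all arrays and by 2.38 (limma adjusted p = 0.000676) within the day. Spry1, an inhibitor of receptor tyrosine kinase signalling, fell by 1.44 (SE 0.28, limma adjusted p = 0.0119). Dusp6, an ERK phosphatase, rose by 0.91 (SE 0.19, limma adjusted p = 0.0165). Dusp10, a phosphatase of JNK and p38, was above background on no wild type array. It was at least 4.93-fold higher (limma adjusted p = 0.00107 for the fitted difference). It alone of the 4 passed under a random slide effect (adjusted p = 0.0242). Kept through the knock-in group alone, Dusp10 could be called only higher. The call of Dusp1 was lost on leaving out any array but wild type 3 (adjusted p from 0.117 to 0.129), and that of Dusp6 without knock-in 2 or wild type 2 (adjusted p = 0.0814 and 0.0519).

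Genes with AP-1 sites in their known control regions, called targets here, were 28 genes, of which 15 were tested, with 7 higher, 1 lower and a median of 0.48. Timp1, an inhibitor of matrix proteases, had scaled log2 signals of 2.38, 2.26 and 1.78 on the knock-in arrays, against -2.24, -2.14 and -2.74 on the wild type arrays, a rise of 4.51 (SE 0.24, limma adjusted p = 0.000135). Ccl2, a chemokine for monocytes, rose by 3.20 (SE 0.24, limma adjusted p = 0.000398). Spp1, the matrix protein osteopontin, and Il6, a cytokine, were above background on no wild type array. They were at least 12.4-fold and 4.585-fold higher (limma adjusted p = 0.00084 and 0.00105 for the fitted differences). Both were kept through the knock-in group alone and could be called only higher, and the 7 higher targets and the median include them. Hmox1, heme oxygenase 1, fell by 1.53 (SE 0.20, limma adjusted p = 0.00309). Under a random slide effect 5 of these 8 calls remained, among them Timp1, Ccl2, Spp1 and Il6 but not Hmox1 (adjusted p = 0.0556). Of the 13 not tested, 7 were matrix metalloproteinases, the protease group most often named as AP-1 targets.

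Heat shock genes that tissue stress raises were 10 genes, of which 9 were tested, with 3 higher, 2 lower and a median of -0.29. Hsph1 rose by 1.15 (limma adjusted p = 0.00613), Hspa1a by 1.06 (limma adjusted p = 0.0476) and Hsp90aa1 by 0.64 (limma adjusted p = 0.0228), all chaperones. Hspe1 and Dnajb1, cochaperones, fell by 1.099 (limma adjusted p = 0.0143) and 1.06 (limma adjusted p = 0.0177). With normexp Hspa1a was at 0.62, and Hspe1 was at -0.63 and not called (limma adjusted p = 0.0741). Under a random slide effect limma called 0 of the 9, where 3.86% of genes were called, with 4 at an unadjusted p under 0.05. None of the 9 was at least 4-fold lower on wild type array 3, where 1.66% of genes were. Hspb1 and Hspa8 differed there from the other wild type arrays by -1.60 and -1.31, Hsph1 and Bag3 by 0.38 and 0.37, with a list median of -0.17. Within the day Hspb1 and Hspa8 were lower in knock-in lenses, at -1.63 (limma adjusted p = 0.00112) and -0.76 (limma adjusted p = 0.00589). Leaving out 1 array ended the calls of Hspa1a (any array, adjusted p from 0.0605 to 0.133), Hsp90aa1 (any but knock-in 1 or wild type 3, 0.0551 to 0.110), and Hspe1 and Dnajb1 (knock-in 2, wild type 1 or wild type 2, 0.0565 to 0.0713). Over the 6 lists together, 39 genes were called, of which 16 were also called under a random slide effect and 38 under a scan day block. That block called 62 genes of the lists in total. Of all genes, 24.2% were called over the 6 arrays without a block, 3.86% under a random slide effect and 42.7% under the scan day block.

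**Figure D4:**
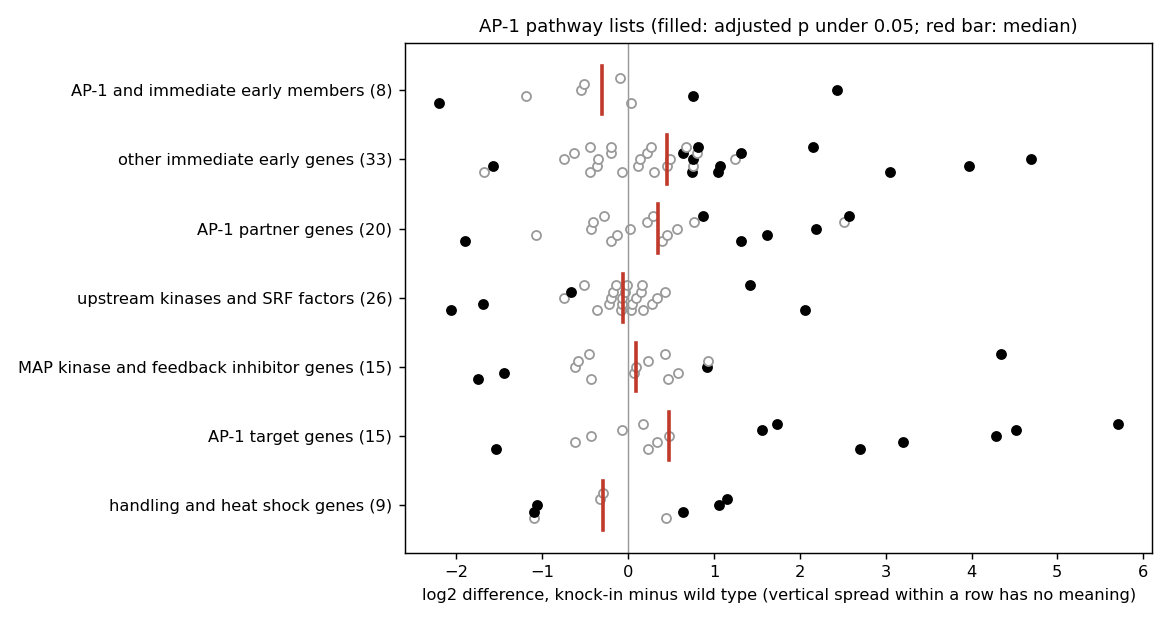
Log2 difference of knock-in minus wild type (horizontal axis) for each tested gene, by list, with the number tested in brackets, a filled point where the adjusted p was under 0.05 and a red bar at the list's median. The AP-1 and immediate early members have a median of -0.31, and the targets, with a median of 0.48, include the largest rise, Spp1, whose fitted value is not a bound.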

How the data were processed

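Per the labels, Cy3-labelled RNA of 6 lens samples was measured on Agilent arrays of 1 colour. The deposited files give scanner intensities for each spot, and the processed signal used here had its background removed, per the file headers, in version 11.0.1.1 of Agilent Feature Extraction. The submitters' processing notes name version 9.1. The file headers name build mm9 for the probe design, and no probe coordinates are given.

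The log2 intensity was taken relative to the 75th percentile of 43020 non-control spots of each array. Spots with outlier marks were dropped and the rest averaged per probe. A probe had to be well above background in 50% or more of its spots on every array of a genotype, which kept 21076 of 39429 probes. RefSeq accessions without versions named 27234 probes, and the brightest kept probe stood for each of 12785 genes. All kept probes were fitted in limma 3.58.1 under R 4.3.3 (lmFit, then eBayes) as knock-in minus wild type, leaving 4 degrees of freedom, with p-values adjusted by Benjamini-Hochberg over probes, and called at 0.05. A log2 difference of 1 is 2-fold. A probe below background in a whole genotype has only a lower bound, set against the higher of the dimmest signal well above background and its own, per array. The bound is approximate, since a probe brighter than that dimmest signal can still fail. On knock-in array 1 the dimmer Fosl2 probe failed at -2.42, where the dimmest signal well above background was -2.68. The procedure was also tested on simulated data.

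The genes and lists were chosen with earlier results of these data known. Named from each list were up to 4 genes per direction with the smallest p and those that a count of 5 or fewer turned on. The labels call the arrays biological replicates without saying whether each came from a separate animal, so a p-value here reflects the spread among arrays, some of which may be technical. Of 399 probes with 10 or more spots, 43.6% to 96.2% differed by over 2 standard errors between arrays of a genotype, so no array was a copy of another. The number of arrays limits the precision. Alternatives covered scaling, background, filters, probe choice, blocks for slide, scan day and replicate number, array weights, and leaving out each array. The slide correlation was 0.57. Normexp (offset 50) used median signals.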

Additional observations from a re-analysis of the deposited data

How the results depend on the processing

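Over 20 alternative settings Fosb, Jun and Junb kept a negative difference, and Fosl2 and Ier3 a positive one, wherever the probe was tested. Junb, where a filter kept it through the wild type group alone, could show only a negative one. The fits within day 1 and without wild type 3 use the same arrays and are the same fit. Adjusted p lay between 0.000112 and 0.682 for Fosb, 0.000787 and 0.980 for Jun, 5.08e-06 and 0.267 for Junb, 3.05e-05 and 0.415 for Fosl2, and 0.000524 and 0.137 for Ier3. The sign of Fos turned to 0.0144 under a random slide effect, 0.49 without wild type 1 and 0.18 without wild type 2, and leaving out 1 array gave -2.33 to 0.49. Jund turned to 0.031 with quantile normalization and 0.29 with normexp. Egr1 turned to -0.0096 with median centring, -0.16 with normexp, -1.40 with scan day as a block, within day 1 and without wild type 3, -1.30 with array weights, -1.09 with the replicate block, -0.16 without knock-in 1 and -0.10 without knock-in 2, and leaving out 1 array gave -1.40 to 0.90. Klf2 turned to -0.0864 with the replicate block. Leaving out 1 array gave -1.59 to 0.0671 for Zfp36 and -1.28 to 0.23 for Ccn1, with the highest values without wild type 1. Fosl2 was also not called with median centring (adjusted p = 0.109) or no filter (0.128), nor Ier3 with no filter (0.0951). Of the member genes, 2 were higher and 1 lower. The number higher was 1 with median centring, with probes above background on all arrays and with the mean of a gene's probes, and 0 with no filter and under a random slide effect. The number lower was 0 with normexp, with probes above background on all arrays and under a random slide effect, 5 with scan day or the replicate block, and 6 within day 1 and with array weights. All probes called numbered 4970, against 2071 with no filter, 9250 with scan day, 9495 within day 1, 669 with slide, 15096 with array weights and 9382 with the replicate block. For other immediate early genes the 12 calls became 6 with no filter, 20 with scan day, 21 within day 1, 4 with slide, 27 with array weights and 21 with the replicate block. For AP-1 partners the 6 calls became 11, 11, 3, 14 and 12 under scan day, day 1, slide, weights and replicate block. For upstream genes 5 calls became 9, 9, 3, 15 and 9, and for feedback inhibitors 4 calls became 7, 7, 1, 9 and 7, in that order of settings. The 8 target calls became 5 with slide and 13 with array weights, and the 5 heat shock calls became 1 with no filter, 0 with slide and 8 with array weights. The cause of these changes was not tested. Leaving out 1 array at a time gave 0 to 2 members higher and 1 to 6 lower, 1934 to 9495 probes, 4 to 21 other immediate early genes, 3 to 11 partners, 3 to 9 upstream genes, 2 to 7 inhibitors, 8 to 10 targets and 1 to 7 heat shock genes. The highest count of members lower, 6, came without wild type 3. Calls were higher in knock-in lenses for 45.7% of called probes, against 35.8% with median centring. Replicate numbers 1 and 2 occur in both genotypes, and deviations of same-numbered arrays correlated at 0.15 and -0.18. With 2 such pairs and 3 arrays per genotype, these values cannot decide whether same-numbered arrays share more than a number. On these arrays depth is the signal over background, which left Fosl1 untested and Junb and Ier2 without a level in knock-in lenses.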
